A study of Mus musculus with 6 samples.

Results

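Ribosome biogenesis and MYC-target genes were followed across 6 microarrays of mouse thymocytes at the double-negative (DN) stage, in which T-cell precursors do not yet carry CD4 or CD8. The members were a list of 44 genes picked by known role: subunits of RNA polymerase I (Pol I), abundant nucleolar proteins, proteins of small nucleolar RNA particles (snoRNPs), assembly factors of the small and of the large ribosomal subunit, polyamine enzymes, and 3 further targets of MYC. Of the 44, 42 were measured by a probe set that lists no other gene, out of 19937 genes measured that way. Ppan was covered only by a probe set shared with a second symbol, and Noc2l was not analysed here. Each gene was read from its brightest probe set, and values are deposited log2 expression levels, so a difference of 1 is a doubling of the signal.

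The 6 arrays form 2 groups of 3. The RAG-/- group, labelled control, holds DN thymocytes of mice that lack Rag2, whose thymocytes cannot assemble antigen receptor genes and stop at the DN stage. The DNTLX3+ group, labelled tumoral, is made of wild-type DN thymocytes that received the retrovirus pMSCV-GFP-TLX3, which carries the T-cell leukaemia homeobox gene TLX3 with a GFP marker. Per the labels' protocols, thymi came from C57Bl/6 mice 4 to 6 weeks old, DN cells were obtained by bead depletion and flow sorting, and transduced cells grew for 4 to 5 weeks on irradiated OP9-DL1 stroma with IL-7 and Flt3L. Rag2 genotype, virus and TLX3 differ together between the groups, the labels do not make clear whether the RAG-/- cells were cultured, and cells given the empty virus were not analysed here. Whether the replicates are separate mice or cultures is not stated in the labels; p-values therefore reflect only how these samples vary, and that variation may be technical.

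Making ribosomes is among the most costly tasks of a dividing cell. Pol I transcribes the ribosomal RNA precursor in the nucleolus, snoRNPs modify and guide the cutting of that precursor, and separate sets of assembly factors build the small and the large subunit. MYC is known to drive transcription of many of these genes together with polyamine and nucleotide synthesis, and it does so by binding E-box sequences near their starts. Developing thymocytes switch this programme on when they leave quiescence and proliferate.

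The RefSeq tables (build GRCm38.p6) held a promoter window for 36 of the 42 members, from 250 bases before the gene start to 50 after it, and none for Bop1, Fbl, Npm1, Rrp12, Rrs1 and Srm. The 250 bases before the start are printed for 5 of them: Nolc1, Mrto4, Nop2 and Odc1, whose transcripts were higher in the DNTLX3+ arrays, and Eif4a1, whose groups overlapped on its brightest probe set. Capitals mark the palindromic E-box CACGTG and the related CACGCG, which reads CGCGTG on the other strand; the search covered both strands, and the motifs share no bases in these 5 windows, though they overlap in that of Mybbp1a.
Nolc1 (chr19:46075597-46075846, plus strand): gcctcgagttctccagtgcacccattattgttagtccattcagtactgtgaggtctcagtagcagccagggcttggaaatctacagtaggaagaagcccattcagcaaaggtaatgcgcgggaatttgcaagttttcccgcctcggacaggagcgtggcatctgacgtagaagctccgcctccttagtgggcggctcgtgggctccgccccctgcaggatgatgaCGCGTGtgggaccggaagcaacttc
Mrto4 (chr4:139352577-139352826, minus strand): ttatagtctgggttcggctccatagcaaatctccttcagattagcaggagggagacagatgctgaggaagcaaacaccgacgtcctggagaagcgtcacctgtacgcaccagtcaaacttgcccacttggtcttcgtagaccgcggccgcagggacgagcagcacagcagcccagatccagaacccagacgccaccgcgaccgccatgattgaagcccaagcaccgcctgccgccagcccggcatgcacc
Nop2 (chr6:125131633-125131882, plus strand): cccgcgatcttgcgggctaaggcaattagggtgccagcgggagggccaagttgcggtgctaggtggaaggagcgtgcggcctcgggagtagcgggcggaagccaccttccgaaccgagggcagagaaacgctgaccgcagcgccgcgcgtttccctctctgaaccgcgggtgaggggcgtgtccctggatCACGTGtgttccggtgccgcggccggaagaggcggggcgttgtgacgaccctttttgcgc
Odc1 (chr12:17544623-17544872, plus strand): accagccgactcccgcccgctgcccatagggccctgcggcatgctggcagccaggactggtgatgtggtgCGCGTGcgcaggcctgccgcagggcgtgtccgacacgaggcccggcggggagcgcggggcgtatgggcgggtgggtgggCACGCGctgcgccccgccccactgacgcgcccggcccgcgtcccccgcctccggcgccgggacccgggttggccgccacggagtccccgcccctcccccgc
Eif4a1 (chr11:69672424-69672673, minus strand): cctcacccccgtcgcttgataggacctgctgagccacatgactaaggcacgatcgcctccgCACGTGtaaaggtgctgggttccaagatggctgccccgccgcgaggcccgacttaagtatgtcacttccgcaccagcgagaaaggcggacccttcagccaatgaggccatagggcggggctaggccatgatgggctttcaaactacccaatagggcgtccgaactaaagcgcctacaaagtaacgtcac
The CACGTG of Nop2 starts 60 bases before the gene and that of Eif4a1 189 bases before it. Over whole windows, CACGTG was present in 9 of 36 members, against 13.1% of the 4914 genes with a window that were at least as bright as the dimmest member and 8.09% of all 27025 genes in the table. CACGCG was present in 10 of 36 members (27.8%), against 22.2% and 10.5%. Among the members that passed the adjusted p, CACGTG was in 5 of 22 and CACGCG in 8, and among those that did not, CACGTG was in 4 of 14 and CACGCG in 2. The match is a description of letters in a window and does not show binding.

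The arrays carried a clear thymocyte signal. The mean log2 level of 11 thymocyte markers, Cd3e and Rag1 among them, was 10.93 to 11.02 on the RAG-/- arrays and 10.34 to 10.70 on the DNTLX3+ arrays; at a limma adjusted p under 0.05, 8 were lower in the DNTLX3+ arrays and 1 higher. Of the 3 markers of later stages, Cd4 and Cd8a did not pass that test, while Cd8b1 rose by 1.52 log2 units from a mean of 5.48 (limma adjusted p = 0.000157). Markers of other cells moved with the groups: at the same adjusted p, 12 of 13 myeloid and dendritic markers, 7 of 10 thymic epithelial markers and 7 of 10 NK markers were lower in the DNTLX3+ arrays, and 1 epithelial marker (Cldn3) and 1 NK marker (Gzma) were higher. The mean level of the myeloid list ran from 8.54 to 8.74 on RAG-/- arrays and from 5.89 to 6.01 on DNTLX3+ arrays, where 9 of the 13 lay under the array medians. For the epithelial list the ranges were 8.42 to 9.04 and 6.40 to 6.82, and for the NK list 7.80 to 7.96 and 6.02 to 6.21. The part that such cells play in the values below was not tested. The DNTLX3+ arrays also had a narrower signal range, with an interquartile range of 2.47 to 2.85 log2 units against 3.09 to 3.18.

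The comparison asks how the transcripts of these genes differ between DN cells carrying TLX3 and DN cells of Rag2-deficient mice. Most members were higher in the DNTLX3+ arrays. The list was picked by role, but with earlier results of these data known, so the shares below describe this list. Of 42, 37 had a positive difference, as did 11470 of all 19937 genes. Of the 6004 genes at least as bright as the dimmest member, 2076 did. The members' median was 0.55 log2 units (DNTLX3+ minus RAG-/-, as everywhere in the text), against 0.11 over all genes and -0.18 over those 6004. At a limma adjusted p under 0.05, 27 members rose and none fell, which is 64.3% of the list; over all genes 23.0% rose and 19.4% fell, and over the genes of that brightness 12.1% rose and 32.3% fell. With a further minimum difference of 1 log2 unit, the rule meant by "called" from here on, 6 rose (Rrs1, Mrto4, Fbl, Ddx18, Nolc1 and Srm) and none fell, or 14.3% against 1.44% higher and 5.07% lower over all genes and 1.15% and 7.21% over those of that brightness. The 3 arrays of each group did not overlap for 30 members with DNTLX3+ above (71.4%) and for 3 with DNTLX3+ below (7.14%), where all genes gave 32.3% and 26.0% and those of that brightness 19.1% and 45.0%. In bulk RNA, fewer cells of a type and less RNA per cell cannot be told apart, so each value describes the whole sorted population.

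**Figure D1:**
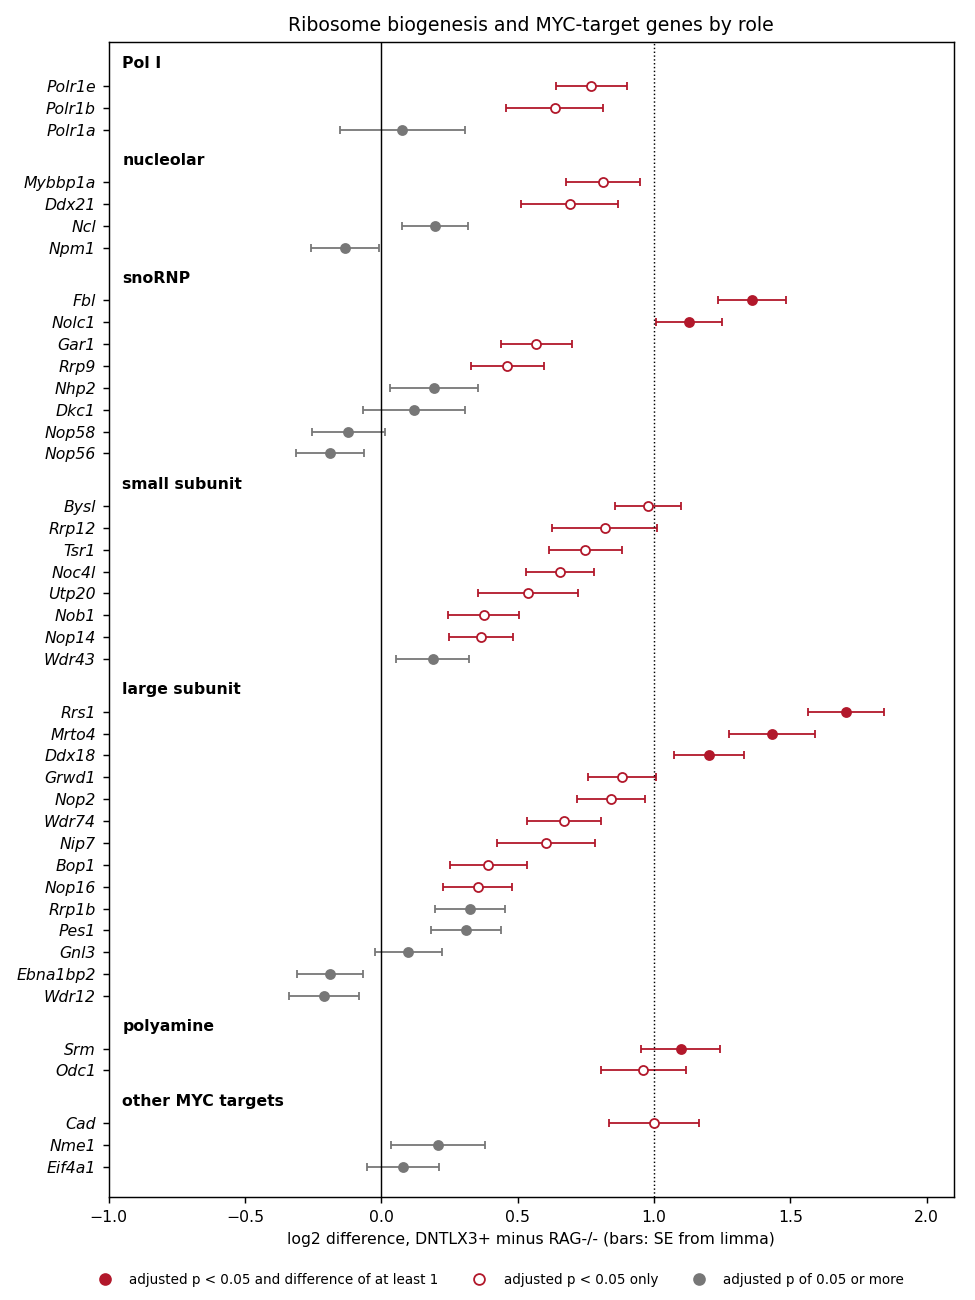
Log2 difference (DNTLX3+ minus RAG-/-) of the 42 measured members with its SE, grouped by role; filled red points passed the limma adjusted p of 0.05 and a difference of 1 (dotted line), open red points passed the adjusted p only, and grey points passed neither. The 6 filled points lie between 1.10 and 1.70, and the lowest grey point is Wdr12 at -0.21.

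Genes of the members' brightness were lower on balance in the deposited values, as the median of -0.18 shows, while the members were higher on balance. When the arrays were rescaled so that the spread of signal matched, the members' median was larger: 0.73 after a further quantile normalization (requantiling) and 0.72 with cyclic loess, where the medians over all genes were 0.04 and 0.00. The number called was then 12 and 10, while 1.51% and 1.28% of all genes were called higher. Genes of the members' brightness moved up along with the members: with cyclic loess their median was -0.03, against -0.18 in the deposited values. With equal array medians, a rescaling that does not match the spread, the members' median was smaller, 0.49, against 0.04 over all genes. There 20 members passed the adjusted p, against 27 in the deposited values, and the number called was 6. DNTLX3+ replicate 1, the array with the narrowest signal range, also bore on the count, which was 10 without it, against 1.08% of all genes.

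**Figure D2:**
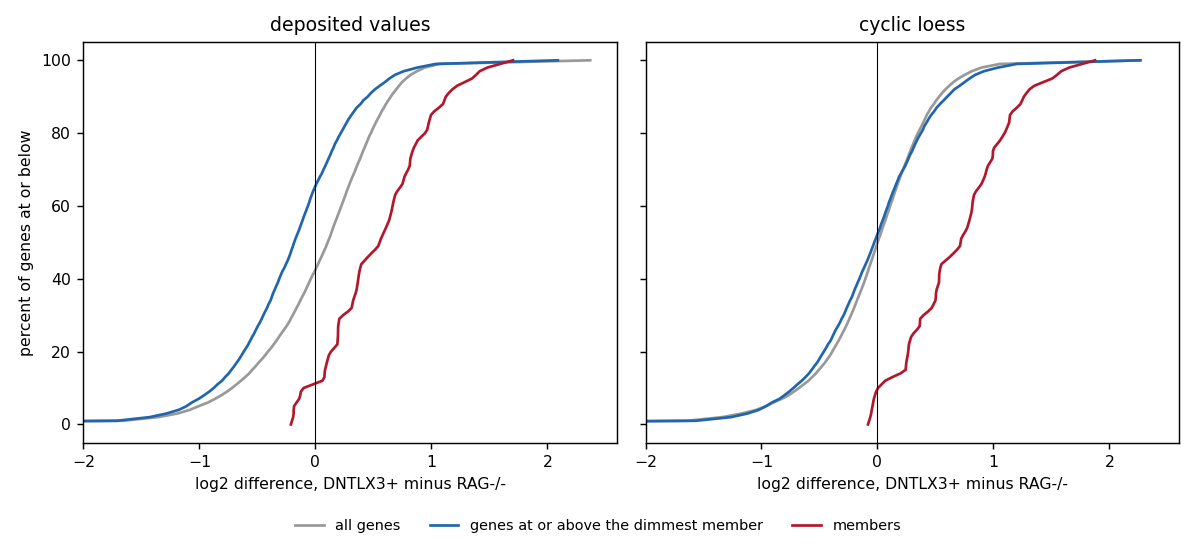
Cumulative percent of genes (y axis) by log2 difference, DNTLX3+ minus RAG-/- (x axis), for the deposited values and with cyclic loess; red, the 42 members; blue, the 6004 genes at least as bright as the dimmest member; grey, all 19937 genes. The members' median is 0.55 in the left panel and 0.72 in the right, and the blue curve's median of -0.18 in the left panel lies near 0 in the right one. The axis ends at -2, short of the largest falls.

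Among the Pol I genes, the second largest and a smaller subunit rose and the largest did not pass the test. Polr1e, a smaller subunit, was at 7.94, 7.84 and 7.74 on RAG-/- replicates 1, 2 and 3 and at 8.78, 8.56 and 8.49 on the DNTLX3+ replicates. The groups did not overlap, and the difference was 0.77 ± 0.13 (SE, limma adjusted p = 0.00229). Polr1b, the second largest subunit, differed by 0.64 ± 0.18 (limma adjusted p = 0.0187). Polr1a, the largest subunit, stood at 8.52, 8.66 and 8.37 against 8.02, 8.97 and 8.79, so that DNTLX3+ replicate 1 was the lowest of all arrays and the other 2 the highest. Its difference was 0.08 ± 0.23, and it was -0.11 without DNTLX3+ replicate 2 and 0.36 without DNTLX3+ replicate 1.

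Of the 4 abundant nucleolar proteins, 2 rose and 2 did not pass the test. Mybbp1a, a nucleolar regulator of Pol I transcription and pre-rRNA processing, was at 9.63, 9.73 and 9.57 against 10.28, 10.64 and 10.45, a difference of 0.81 ± 0.13 (SE, limma adjusted p = 0.00204). The RNA helicase Ddx21 rose by 0.69 ± 0.18 (limma adjusted p = 0.0133). Nucleolin (Ncl), which binds the ribosomal RNA precursor, differed by 0.20 ± 0.12 (limma adjusted p = 0.214), although its 3 DNTLX3+ arrays lay above the 3 RAG-/- arrays. Nucleophosmin (Npm1), a nucleolar histone chaperone, was at 10.76, 10.67 and 10.66 against 10.61, 10.42 and 10.66, with overlapping groups and a difference of -0.13 ± 0.12.

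Of the 8 snoRNP members, 4 passed the adjusted p, all higher, and 2 were called; their median was 0.33, and 0.21 without DNTLX3+ replicate 2. Differences between partners of a particle were not tested. Fibrillarin (Fbl), the methyltransferase of box C/D snoRNPs, was at 8.43, 8.38 and 8.24 against 9.66, 9.82 and 9.64. It was 2.56-fold higher, by 1.36 ± 0.12 log2 units (SE, limma adjusted p = 0.000159), on its brighter probe set, and its other probe set, numbered among genes of its own chromosome, gave 0.54. Nop56 and Nop58, its partners in the box C/D core, did not pass the test. Nop56 was at 10.38, 10.40 and 10.40 against 10.09, 10.18 and 10.36, below the RAG-/- arrays on each DNTLX3+ array, with a difference of -0.19 ± 0.12 (limma adjusted p = 0.244), and Nop58 differed by -0.12 ± 0.13. Rrp9, a protein of the U3 snoRNP that guides early cuts of the precursor, rose by 0.46 ± 0.13.

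Nolc1, a chaperone that ferries snoRNPs between nucleolus and Cajal bodies, was at 8.94, 9.00 and 8.84 against 9.95, 10.09 and 10.12. It was 2.18-fold higher, by 1.13 ± 0.12 (SE, limma adjusted p = 0.000333). In the box H/ACA particle, which makes pseudouridine, Gar1 rose by 0.57 ± 0.13 (limma adjusted p = 0.00846), and its partners Nhp2 (0.19 ± 0.16) and the catalytic subunit Dkc1 (0.12 ± 0.19) did not pass the test. Nhp2 passed it after requantiling (0.39, limma adjusted p = 0.0404) and with cyclic loess (0.36). Single arrays weighed on both partners: Nhp2 was at 0.04 without DNTLX3+ replicate 2 and 0.32 without DNTLX3+ replicate 1, and Dkc1 at -0.01 without DNTLX3+ replicate 3 and 0.33 without DNTLX3+ replicate 1.

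**Figure D3:**
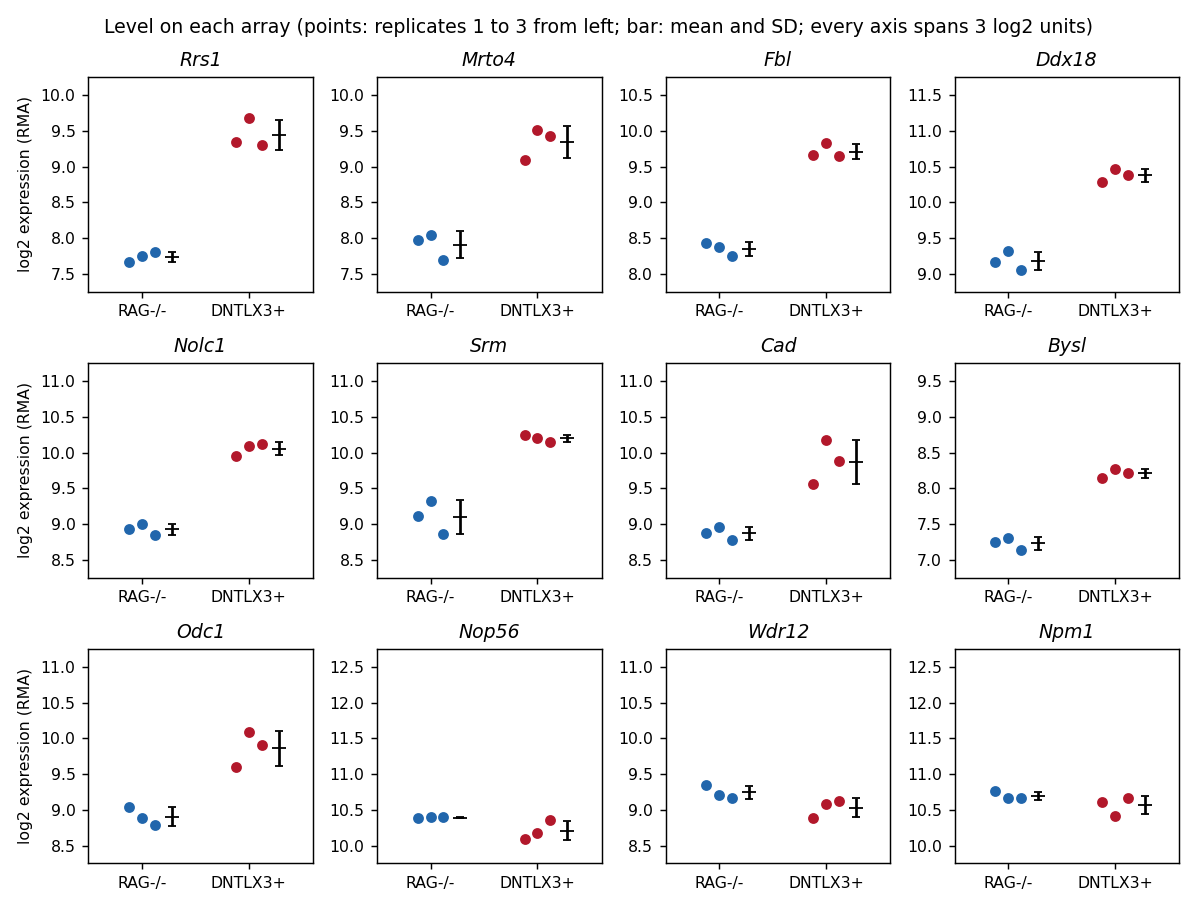
Log2 expression (y axis) of 12 members on each of the 3 RAG-/- (blue) and 3 DNTLX3+ (red) arrays, with the mean and SD beside them; every panel spans the same number of log2 units. Rrs1, Mrto4, Fbl, Ddx18, Nolc1, Srm, Cad, Bysl and Odc1 show groups apart with DNTLX3+ higher, while Nop56, Wdr12 and Npm1 show DNTLX3+ means below those of the RAG-/- arrays by 0.13 to 0.21.

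Of the 8 small-subunit factors, 7 rose, 1 did not pass the adjusted p, and the median was 0.60. Bysl, which escorts the precursor of the small subunit out of the nucleus, was at 7.25, 7.31 and 7.13 against 8.14, 8.27 and 8.21. Its difference of 0.98 ± 0.12 (SE, limma adjusted p = 0.000563) fell just short of the minimum, and it was called after requantiling (1.15) and with cyclic loess (1.14). Rrp12, an export factor of pre-ribosomes, was at 7.67, 7.88 and 7.51 against 8.11, 8.81 and 8.59, with a difference of 0.82 ± 0.19 that became 1.02 after requantiling. DNTLX3+ replicate 1 was the lowest of its group for both.

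Tsr1 (0.75 ± 0.14) and Nob1 (0.38 ± 0.13), which act in the last steps of small-subunit maturation, rose. So did Noc4l (0.66 ± 0.12), Utp20 (0.54 ± 0.18) and Nop14 (0.37 ± 0.12), which belong to the early processing complex. Wdr43, another protein of that complex, was at 10.26, 10.29 and 10.15 against 10.22, 10.51 and 10.53. Its groups overlapped through DNTLX3+ replicate 1, and the difference was 0.19 ± 0.13 (limma adjusted p = 0.273).

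The large-subunit factors held both the highest and the lowest differences of the list. Rrs1, which helps to bring a small ribosomal RNA particle into the growing large subunit, was at 7.67, 7.74 and 7.80 against 9.34, 9.68 and 9.30. It was 3.26-fold higher, by 1.70 ± 0.14 (SE, limma adjusted p = 9.87e-05), and it was the only member past the minimum when the minimum was tested inside limma (treat), where 0.0351% of all genes were called higher. Mrto4, which holds the place of a stalk protein until late assembly, was at 7.98, 8.05 and 7.69 against 9.09, 9.51 and 9.42, a rise of 1.43 ± 0.16 (limma adjusted p = 0.000364). Ddx18, an RNA helicase, was at 9.17, 9.31 and 9.06 against 10.28, 10.47 and 10.38, a rise of 1.20 ± 0.13 (limma adjusted p = 0.000321). For each of these genes the groups were clearly apart.

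Grwd1, a histone-binding factor of the nucleolus, was at 7.91, 7.78 and 7.74 against 8.64, 8.82 and 8.61, a rise of 0.88 ± 0.13. Nop2, a methyltransferase of the large ribosomal RNA, was at 8.76, 8.71 and 8.72 against 9.49, 9.74 and 9.49, a rise of 0.84 ± 0.13. Both were called after requantiling, at 1.08 and 1.01, and Grwd1 also with cyclic loess, at 1.06. Wdr74 (0.67 ± 0.14), Nip7 (0.60 ± 0.18) and Nop16 (0.35 ± 0.13) rose as well, and Rrp1b (0.33 ± 0.13) did not pass the test. Rrp1b passed it after requantiling (0.53, limma adjusted p = 0.00554).

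Pes1, Bop1 and Wdr12 form a complex needed for large-subunit maturation. Bop1 rose by 0.39 ± 0.14 (SE, limma adjusted p = 0.0487, and 0.105 with equal array medians). Pes1 stood close to it at 0.31 ± 0.13 (limma adjusted p = 0.0769), and for both the DNTLX3+ arrays lay above the RAG-/- arrays. Wdr12 was at 9.35, 9.21 and 9.17 against 8.88, 9.08 and 9.13, each DNTLX3+ array lower than each RAG-/- array, with a difference of -0.21 ± 0.13 (limma adjusted p = 0.205). Ebna1bp2 (-0.19 ± 0.12) was also lower on every DNTLX3+ array without passing the test, and the nucleolar GTPase Gnl3 differed by 0.10 ± 0.12. After requantiling and with cyclic loess, no member had all DNTLX3+ arrays below all RAG-/- arrays.

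Both members that make polyamines were higher. Srm, spermidine synthase, was at 9.11, 9.32 and 8.86 against 10.24, 10.20 and 10.15, a 2.14-fold rise of 1.10 ± 0.14 (SE, limma adjusted p = 0.000745). The RAG-/- arrays were the more spread of the groups, and without RAG-/- replicate 3, its lowest array, the difference was 0.98 and Srm was no longer called. Odc1, ornithine decarboxylase, the rate-limiting enzyme and a classical MYC target, was at 9.04, 8.89 and 8.78 against 9.60, 10.09 and 9.90, a rise of 0.96 ± 0.15 (limma adjusted p = 0.00178). It was called after requantiling (1.10) and with cyclic loess (1.11).

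Of the 3 remaining MYC targets, only Cad passed the adjusted p. Cad, the enzyme of the opening steps of pyrimidine synthesis, was at 8.87, 8.96 and 8.78 against 9.56, 10.17 and 9.89, a rise of 0.9996 ± 0.17 (SE, limma adjusted p = 0.00202) that missed the minimum difference by less than any rounding; it was 1.14 after requantiling and with cyclic loess. Nme1, a nucleoside diphosphate kinase, differed by 0.21 ± 0.17. Eif4a1, the helicase of translation initiation, was at 12.43, 12.55 and 12.50 against 12.38, 12.68 and 12.66, and its groups overlapped on this brightest probe set (0.08 ± 0.13).

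Myc itself was at 10.50, 10.52 and 10.24 against 10.71, 11.38 and 11.08. The groups did not overlap, and the difference was 0.64 ± 0.18 (SE, limma adjusted p = 0.0197), short of the minimum. DNTLX3+ replicate 1 was the lowest of its group, as it was for Odc1, Cad and Rrp12, while for Srm and Polr1e it was the highest. Over the 6004 genes at least as bright as the dimmest member, that array also had the lowest DNTLX3+ median, 8.41 against 8.68 and 8.62. Of the relatives of Myc, Mycn fell by 0.73 ± 0.14 (limma adjusted p = 0.00374) and Mycl rose by 0.65 ± 0.15 (limma adjusted p = 0.00901).

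Of the members, 6 had more than 1 probe set, and for 3 of these the probe sets gave different calls. For Fbl the choice decided the size. Probe sets of this array are numbered along the genome, and the brighter Fbl probe set (10447589) is numbered among genes of chromosome 17 (8 of its 10 named neighbours), while Fbl lies on chromosome 7, where all 10 neighbours of the other probe set (10551464) lie. That second probe set read 8.50, 8.28 and 8.28 against 8.74, 9.00 and 8.95, a rise of 0.54 ± 0.13 (SE, limma adjusted p = 0.0111), so Fbl passed the adjusted p on both probe sets and the minimum difference on the brighter one only. Both list the same RefSeq transcript, and signal of Fbl and of a near-identical copy elsewhere could not be separated here, so the size of its rise is uncertain. On the RAG-/- arrays the means were 8.351 on 10447589 and 8.355 on 10551464. The first was thus the brighter only through the DNTLX3+ arrays (9.71 against 8.90), and reading the brightest probe set also took the larger difference.

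Ddx18 gave 1.20 on the probe set numbered among genes of its own chromosome and 0.84 on the other, and Mrto4 gave 1.43 and 0.82 in the same order. For Ddx18 the own-chromosome probe set was the dimmer on the RAG-/- arrays (mean 9.18 against 9.34). It was the brightest only through the DNTLX3+ arrays (10.38 against 10.18), so here too the choice took the larger difference. For Mrto4 the chosen probe set was the brighter in both groups. Odc1 gave 0.96 and 0.98, so its probe sets did not differ in call. For Wdr12 and Eif4a1, as for Fbl, the brightest probe set was numbered among genes of another chromosome; the own-chromosome probe sets gave -0.21 and 0.15, again without passing the test. On these, the groups of Wdr12 overlapped, while for Eif4a1 the DNTLX3+ arrays lay above the RAG-/- arrays, as they did on its remaining probe set (0.29). With own-chromosome probe sets throughout, 5 members were called and the median over members stayed within the spread between arrays.

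**Figure D4:**
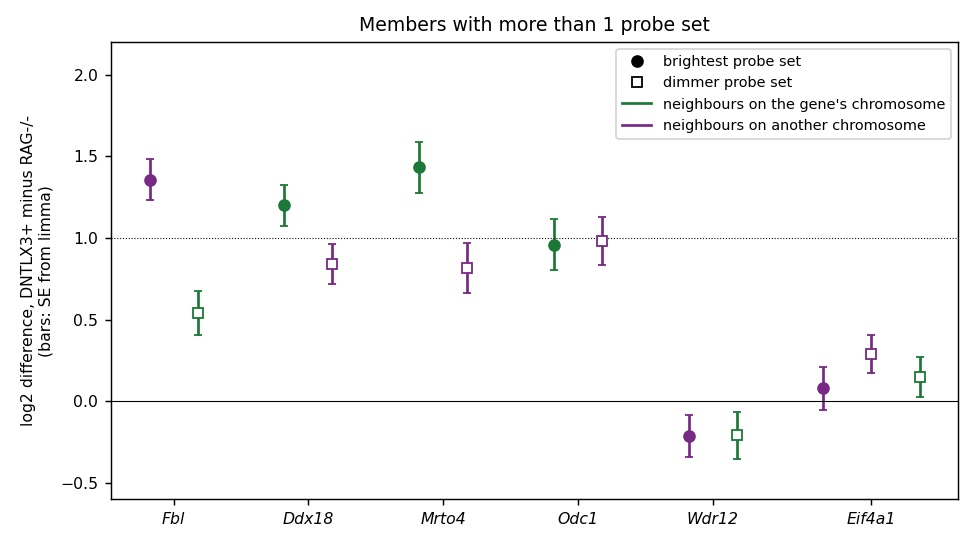
Log2 difference with its SE for each probe set of the 6 members that have more than 1; circles are the brightest probe set of a gene, open squares the dimmer ones, green marks probe sets numbered among genes of the gene's own chromosome and purple those numbered among genes of another chromosome. Fbl shows 1.36 on the purple and 0.54 on the green probe set, and Ddx18 and Mrto4 are higher on the green one.

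The members' differences ran against their level. Over the 42 members, Spearman's rho between the mean level in the RAG-/- arrays and the log2 difference was -0.51, a description only, since both measures use the RAG-/- arrays. The 14 dimmest members in the RAG-/- arrays had a median difference of 0.72, the 14 in the middle 0.48 and the 14 brightest 0.11. All 2139 genes at or above the lowest level of those 14 brightest had a median of -0.29, so the brightest members also lay above genes of their own level.

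Members that hold a small nucleolar RNA (snoRNA) gene within their span had mostly small differences. By the GRCm38.p6 gene table, 9 of the 42 do: Ncl, Nop56, Nop58, Dkc1, Wdr43, Tsr1, Gnl3, Odc1 and Eif4a1. Their median difference was 0.12, with 2 of 9 past the adjusted p (Tsr1 and Odc1), against 0.64 and 25 of 33 for the others. The split was made after the values were seen and was not tested. These hosts were also the brighter members, with a median RAG-/- level of 10.05 against 8.73, so level and hosting move together here. Over all genes as bright as the members, the 163 hosts had a median of -0.14 and the others -0.18.

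**Figure D5:**
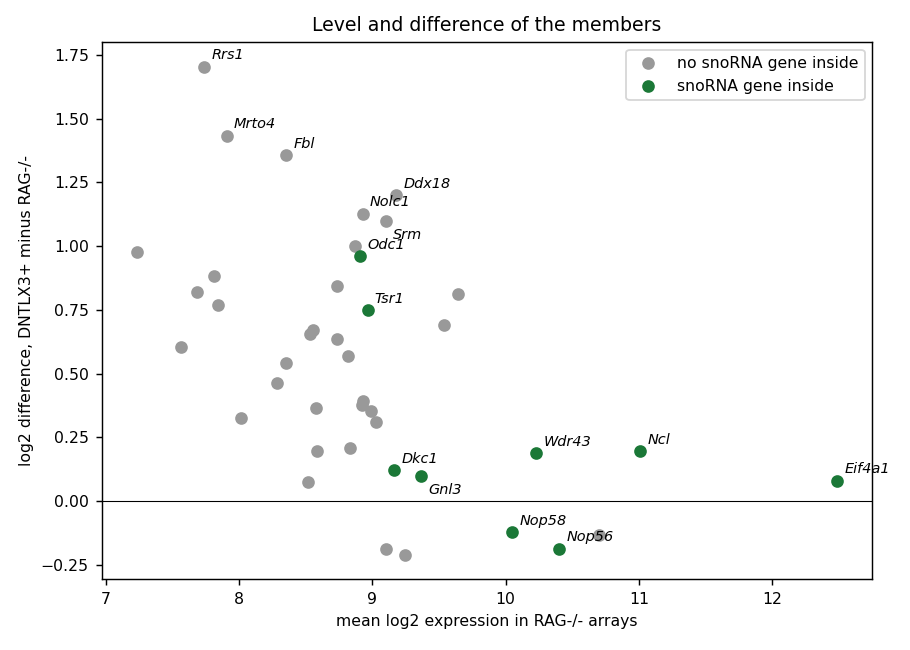
Log2 difference, DNTLX3+ minus RAG-/- (y axis), against the mean log2 expression in the RAG-/- arrays (x axis) for the 42 members; green points hold a snoRNA gene within their span. The called members lie between levels 7.74 and 9.18, and 7 of the 9 green points lie between -0.19 and 0.20.

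Of the snoRNAs inside member genes, 4 had a probe set of their own. Of these, 3 passed the adjusted p as lower, as did 19.4% of all genes, while their hosts did not pass the test. No difference between a snoRNA and its host was tested. Whether these probe sets read the snoRNA alone or also RNA of the host was not tested either. Snord53, inside Wdr43, was at 8.21, 8.06 and 8.15 against 6.31, 6.89 and 6.86 and fell by 1.45 ± 0.17 (SE, limma adjusted p = 0.000454). Snora75, inside Ncl, fell by 0.96 ± 0.20 (limma adjusted p = 0.00626), and Snord57, inside Nop56, fell by 0.66 ± 0.20 (limma adjusted p = 0.0287). Snord82, also inside Ncl, differed by 0.56 ± 0.29 with overlapping groups (limma adjusted p = 0.139).

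Gene length moved with the groups as well. Among genes at least as bright as the dimmest member, the shortest 1200 (up to 8284 bases) had a median difference of -0.00 and the longest 1200 (from 64136 bases) -0.43. Of the members, 16 were as short as the former, with a median of 0.59, and 14 fell in the next 1200 genes by length, with 0.76. The 2 members among the longest had a median of 0.31. In each of the 5 length classes the members' median was above that of the genes around them.

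Further genes of the same pathways, 127 measured, had a median difference of 0.21. They were listed by role rather than by value, though with earlier results of these data known. At the limma adjusted p, 41 (32.3%) rose and 12 (9.45%) fell, against 23.0% and 19.4% of all genes. Over the genes at least as bright as the dimmest member, 12.1% rose and 32.3% fell. With the minimum difference, 2 of the 127 rose and 2 fell, or 1.57% each, where over all genes 1.44% were called higher and 5.07% lower. The share called higher is thus near that of all genes. At the adjusted p alone, the small-subunit genes of this list had 15 of 43 higher and 2 lower, and the large-subunit genes 14 of 41 and 2. The snoRNP genes had 3 of 11 and 1, the Pol I genes 2 of 12 and 3, and the MYC-target and pyrimidine-synthesis genes 7 of 15 and 2.

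The 2 called higher were assembly factors. Utp4, of the early small-subunit complex, was at 9.21, 9.22 and 9.01 against 10.05, 10.46 and 10.13 and rose by 1.07 ± 0.15 (SE, limma adjusted p = 0.000904). Lyar, a nucleolar protein, was at 8.04, 7.94 and 7.68 against 9.05, 8.98 and 9.07 and rose by 1.15 ± 0.13 (limma adjusted p = 0.000461). Both had groups well apart.

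The 2 called lower act elsewhere in the same pathways. Taf1a, a subunit of the factor that recruits Pol I to ribosomal DNA, was at 9.88, 9.73 and 9.82 against 7.76, 8.26 and 8.07 and fell by 1.78 ± 0.15 (SE, limma adjusted p = 0.000108). Its only probe set (10598107) does not lie in a numbered run of genes of chromosome 1, where Taf1a is, since no more than 2 of its 10 named neighbours share a chromosome, so which locus it reads is uncertain. Sat1, which acetylates spermidine and spermine and so starts their breakdown or export, was at 8.99, 8.91 and 8.86 against 6.12, 6.96 and 7.20 and fell by 2.16 ± 0.25 (limma adjusted p = 0.000411). The fall of Sat1 stands beside the rise of the synthesis enzymes Odc1 and Srm and also beside the fall of 12 of 13 myeloid markers, whose part in it was not tested. Of the 5 further polyamine genes, 2 passed the adjusted p as lower and none as higher.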

How the data were processed

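Biotin-labelled total RNA was hybridised to 6 one-colour arrays, per the labels. The authors deposited 1 log2 value per probe set and array, computed by RMA, which subtracts background, equalises array distributions and summarises probes, with affy and R 2.9.0, according to the submitters' processing notes. Their genome build is not given here. Of 34760 probe sets, 6568 numbered before the genome-ordered ones and without a listed gene were left out, and 28192 were tested. Over those tested, the deposited distributions were not equal between arrays, with interquartile ranges from 2.47 to 3.18 log2 units. The number of arrays limits the precision.

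Groups came from the sample titles. Differences were tested with limma 3.58.1 in R 4.3.3 (lmFit and eBayes, two-sided, no covariate), adjusted by Benjamini-Hochberg over all 28192 probe sets, and the same pipeline was tested on simulated data. A gene was read from its brightest probe set with a single symbol. Named with every array were the called members, those called after a rescaling, the extremes of each role, Myc, and called genes of the further list. The members and lists were chosen with earlier results of these data known. The motif search, the neighbour chromosomes and nested snoRNAs used RefSeq tables of GRCm38.p6. Plots were drawn with matplotlib 3.10.9.

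Alternatives were 3 rescalings (a further quantile normalization, called requantiling, equal medians, and cyclic loess), leaving out dim probe sets, a variance trend on intensity, weighting of arrays, the replicate number as a block, limma treat, averaging the probe sets of each gene, leaving out single arrays and, chosen after the data were seen, own-chromosome probe sets.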

Additional observations from a re-analysis of the deposited data

How the results depend on the processing

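No member changed direction among those that passed the adjusted p, and none was called lower under any alternative. The members called higher, 6 in the main setting, numbered 12 after requantiling, 10 with cyclic loess, 6 with equal array medians and 1 with limma treat. They numbered 5 to 10 when each array was left out, with 10 without DNTLX3+ replicate 1. The members' median of 0.55 was 0.73 after requantiling, 0.72 with cyclic loess and 0.49 with equal array medians. It ran from 0.41 to 0.64 with an array left out, the lowest without DNTLX3+ replicate 2. The count past the adjusted p alone, 27, was 30 after requantiling and 20 with equal array medians. It fell to between 18 and 26 with an array left out. Of the further pathway genes, the 2 called higher became 5 after requantiling, 4 with cyclic loess, 0 with limma treat and 1 to 3 with an array left out; the 2 called lower became 1 with limma treat. For the rescalings the cause was not tested; limma treat asks that the difference exceed the minimum beyond its error. The replicate numbers did not pair the samples: deviations of same-numbered arrays correlated at -0.11, 0.06 and -0.00. With the replicate number as a block, 6 members were called and 23 passed the adjusted p.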
